A study of Mus musculus with 15 samples.

Results

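The lens of the mouse embryo was compared between E10.5 and E12.5 (E, embryonic day), the interval in which the lens vesicle fills with primary fibre cells. The comparison used 6 of the 15 RNA-seq libraries of the series, 3 at each stage, and covered 14532 genes. Both groups were wild-type C57BL/6NTac embryos, at different stages. Lenses were micro-dissected and pooled, 50 per library at E10.5 and 29 per library at E12.5, and the labels call the 3 libraries of a stage biological replicates. The other libraries were lenses at E14.5 and E16.5 and whole embryos, 3 of each, and they entered the fit to share its estimate of spread. The title of the series names the search for cataract genes as its purpose.

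The lens forms when the surface ectoderm over the optic vesicle thickens, folds in and pinches off as a hollow vesicle. Cells at the back of the vesicle then leave the cell cycle, elongate and fill the cavity as primary fibres, while cells at the front remain a dividing epithelium. Fibre cells make crystallins, the soluble proteins that give the lens its refractive power, together with a particular set of channels, membrane proteins and intermediate filaments. They later lose their nuclei and organelles.

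Expression was given in FPKM, fragments scaled by transcript length and by the size of the library, summed here over the transcripts of a gene. Differences are log2 fold changes of FPKM + 1, estimate ± SE, from limma with p-values adjusted by the Benjamini-Hochberg method over all genes tested. A gene is said to rise or fall where its adjusted p was under 0.05. The addition of 1 FPKM understates the change of genes with low values, and read depth is not given in the sources used here. In bulk tissue, fewer cells of a type and less RNA per cell cannot be told apart.

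Libraries of a stage resembled each other, with a Pearson correlation across genes (log2 scale) between 0.984 and 0.987 at E10.5 and between 0.980 and 0.989 at E12.5, and between 0.893 and 0.928 across the stages. The summed FPKM of a library was 712629 to 766653 at E10.5 and 875223 to 977542 at E12.5. Crystallins made up 0.0463% to 0.067% of that sum at E10.5 and 7.27%, 11.3% and 12.9% in libraries 1, 2 and 3 at E12.5. Several libraries also carried RNA typical of tissues other than the lens, and this was uneven. E10.5 libraries 1 and 3 held transcripts typical of liver and yolk sac. E10.5 library 3 held collagen transcripts, with Col1a1 at 1273 FPKM against 13.3 and 10.8 in its replicates. E12.5 library 1 had the most mesenchyme and red cell transcripts of its stage and the lowest crystallins. List counts and calls that changed when these libraries were left out are given below. Leaving out E10.5 libraries 1 and 3 together, or E10.5 library 3 with E12.5 library 1, was chosen after seeing the data.

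Between E10.5 and E12.5, 4280 genes rose (29.5% of those tested) and 3779 fell (26.0%). With a minimum of 2-fold, 1240 genes rose (8.53%) and 1067 fell (7.34%). In 8476 genes (58.3%) the 3 libraries of one stage lay wholly above those of the other, so a lack of overlap was common. The largest changes were mostly rises. A change of at least 8-fold was found for 153 rising and 45 falling genes, and one of at least 64-fold for 18 rising and 2 falling genes. Those 2 falls were mt-Rnr2, whose table entries need care, and Afp, which was uneven among the E10.5 libraries (both below). Of the called genes, 53.1% were higher at E12.5. That share was 40.6% once the libraries were rescaled to equal totals without crystallins. The median shift of a gene's log2 fold change under that rescaling was -0.14. Of genes called at 2-fold or more, 53.7% were higher, or 42.8% after that rescaling. The median log2 fold change of all genes tested was 0.006, and list medians for E12.5 against E10.5 are to be read against it. List counts for E12.5 against E10.5 are to be read against the shares of all genes tested, 29.5% rising and 26.0% falling.

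Crystallins showed the largest rises. All 14 tested members of a list of 16 crystallin genes rose, 13 of them at least 2-fold, with a median log2 fold change of 6.97. Over 19 alternative settings, 13 or 14 of them rose. Crybb1, a beta-crystallin, measured 5.96, 6.81 and 7.86 FPKM at E10.5 and 4922, 8672 and 9907 FPKM at E12.5, a log2 fold change of 9.90 ± 0.20 (limma adjusted p = 1.1e-13). Its mean rose 1140-fold, the largest rise of any named gene on the log2 scale. Cryga, a gamma-crystallin, measured 7.69, 9.70 and 11.2 FPKM at E10.5 and 3279, 6139 and 9006 FPKM at E12.5, a log2 fold change of 9.08 ± 0.26 (limma adjusted p = 2.41e-12). Cryba4 and Cryba2 encode further beta-crystallins. Cryba4 measured 3.43, 3.60 and 4.10 FPKM at E10.5 and 1539, 2472 and 3518 FPKM at E12.5, a log2 fold change of 8.98 ± 0.20 (limma adjusted p = 1.41e-13). Cryba2 measured 3.94, 3.03 and 3.81 FPKM at E10.5 and 1480, 2457 and 3004 FPKM at E12.5, a log2 fold change of 8.92 ± 0.18 (limma adjusted p = 1.1e-13). In each of these 4 genes the 3 E12.5 libraries lay far above the 3 E10.5 libraries, and a lack of overlap was part of the rule that chose them. Library 1 was the lowest and library 3 the highest at E12.5.

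The crystallins did not start from the same level. Crybb3 already stood at 153, 96.8 and 103 FPKM at E10.5, and reached 7717, 12189 and 13748 FPKM at E12.5, a log2 fold change of 6.55 ± 0.20 (limma adjusted p = 3.22e-12). Cryaa, which encodes alpha-A-crystallin, a small heat shock protein and chaperone, was listed at 104, 63.7 and 71.7 FPKM at E10.5 and 25806, 41766 and 49433 FPKM at E12.5. Cryba1 was listed at 24.0, 20.0 and 22.5 and then 12420, 18859 and 22828 FPKM. Both genes were left out of the main tests because they are listed at 0 in single libraries of later stages beside replicates with high values. A fit of the 6 compared libraries alone gave log2 fold changes of 8.90 ± 0.31 for Cryaa (limma adjusted p = 6.49e-05) and 9.57 ± 0.23 for Cryba1 (limma adjusted p = 5.12e-05). The second alpha-crystallin, Cryab, which many other tissues also express, rose far less. It measured 105, 81.3 and 83.7 FPKM at E10.5 and 573, 841 and 809 FPKM at E12.5, a log2 fold change of 3.02 ± 0.14 (limma adjusted p = 3.01e-10).

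Among the gamma-crystallins, Cryge measured 38.0, 36.2 and 34.9 FPKM at E10.5 and 3325, 5377 and 7341 FPKM at E12.5, and Crygd 5.18, 5.11 and 5.95 FPKM at E10.5 and 622, 1164 and 1761 FPKM at E12.5. Crygc measured 14.4, 13.9 and 11.3 FPKM at E10.5 and 649.8, 1009 and 1286 FPKM at E12.5, and Crygb 3.43, 4.02 and 3.82 FPKM at E10.5 and 314, 581 and 910.0 FPKM at E12.5. Crygf stayed the lowest of these 6 tandem copies and near neighbours at E12.5, at 85.9, 169 and 261 FPKM from 1.60, 2.13 and 2.07. Cryga to Cryge lie together on chr1:65048554-65103373 (mm10), with Crygf on the same chromosome at chr1:65926520-65928307, plus strand. These copies are close in sequence, so how reads were divided among them is uncertain. Crygn and Crygs lie elsewhere, on chromosomes 5 and 16. Crygn measured 5.27, 5.77 and 6.17 FPKM at E10.5 and 838, 1405 and 1808 FPKM at E12.5, and Crygs 1.74, 1.70 and 1.91 FPKM at E10.5 and 67.0, 86.7 and 84.8 FPKM at E12.5. Crybb2, a major crystallin of the mature lens, had risen least by E12.5. It measured 1.73, 1.45 and 1.17 FPKM at E10.5 and 2.18, 3.12 and 3.98 FPKM at E12.5, a log2 fold change of 0.72 ± 0.25 (limma adjusted p = 0.0221). The stages did not overlap, as in 58.3% of all genes tested.

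Promoter sequence was examined for the crystallins because they rose together. The sequences are from RefSeq (GRCm38.p6, the same assembly as mm10) and run 5′ to 3′ over the 200 bases before each annotated start. They are shown for the 4 crystallin genes with TGCTGAC in these bases, chosen after their values were seen. Capitals mark TGCTGAC, the core of a Maf response element, and the TATA box in the form TATAAA. Crybb1 and Cryba4 are neighbours that point away from each other, with starts 3302 bases apart on chromosome 5.
Crybb1, chr5:112255620-112255819, plus strand: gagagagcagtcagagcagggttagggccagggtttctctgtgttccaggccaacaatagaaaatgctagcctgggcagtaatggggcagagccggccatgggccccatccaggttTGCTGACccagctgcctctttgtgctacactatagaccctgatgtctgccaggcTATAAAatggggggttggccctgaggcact
Cryba4, chr5:112252519-112252718, minus strand: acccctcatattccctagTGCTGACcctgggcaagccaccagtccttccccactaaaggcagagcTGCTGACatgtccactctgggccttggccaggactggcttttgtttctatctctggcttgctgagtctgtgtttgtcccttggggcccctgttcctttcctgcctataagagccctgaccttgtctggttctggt
Cryba1, chr11:77725294-77725493, minus strand: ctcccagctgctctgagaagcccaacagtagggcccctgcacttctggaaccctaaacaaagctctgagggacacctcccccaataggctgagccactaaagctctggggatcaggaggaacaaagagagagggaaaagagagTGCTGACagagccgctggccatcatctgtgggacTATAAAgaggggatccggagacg
Cryaa, chr17:31677731-31677930, plus strand: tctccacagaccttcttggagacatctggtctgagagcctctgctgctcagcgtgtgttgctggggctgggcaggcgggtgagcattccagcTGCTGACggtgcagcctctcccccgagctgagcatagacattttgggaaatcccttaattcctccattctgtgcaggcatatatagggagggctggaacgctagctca
Counted from the start, TGCTGAC begins at base -84 in Crybb1, at -182 and -135 in Cryba4, at -57 in Cryba1 and at -108 in Cryaa. TATAAA begins at -30 in Crybb1 and at -23 in Cryba1. Windows of 300 bases, from 250 before to 50 after a start, were searched on both strands. TGCTGAC was found in 5 of 15 crystallin windows (33.3%) and in 3.7% of the 13261 windows of tested genes. TATAAA was found in 4 of them (26.7%) and in 7.24% of all windows, and its match in Cryba2 begins at -3, next to the start. The search covered 9 letter patterns. TTTGAA, taken up below for mitosis genes, was also in 26.7% of crystallin windows, against 11.7% of all windows. These are matches of letters, given as a description.

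The membrane and junction proteins of fibre cells rose next in size. Of 12 tested genes of that list, 9 rose, 8 of them at least 2-fold, 1 fell, and the median log2 fold change was 2.94. Lim2, an abundant membrane protein of fibre cells, measured 2.06, 1.56 and 1.52 FPKM at E10.5 and 597, 815 and 1123 FPKM at E12.5, a log2 fold change of 8.24 ± 0.16 (limma adjusted p = 1.1e-13). Mip, the lens water channel aquaporin 0, lies at chr10:128225838-128231812, plus strand and measured 7.88, 8.09 and 7.52 FPKM at E10.5 and 1266, 1605 and 2556 FPKM at E12.5, a log2 fold change of 7.62 ± 0.19 (limma adjusted p = 4.83e-13). A long non-coding RNA on the opposite strand that overlaps it, Gm26847 (chr10:128230590-128232790, minus strand), measured 6.78, 6.77 and 4.66 FPKM at E10.5 and 1463, 1824 and 2895 FPKM at E12.5. The sources used here do not say whether reads were counted by strand, so reads of this pair cannot be separated.

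The gap junction genes did not move together. Gja3 (connexin 46) rose and measured 11.4, 8.18 and 6.45 FPKM at E10.5 and 501, 578 and 796 FPKM at E12.5, a log2 fold change of 6.02 ± 0.17 (limma adjusted p = 2.7e-12), and Gje1 measured 0.87, 1.09 and 0.84 FPKM at E10.5 and 191, 221 and 326 FPKM at E12.5. Gja1 (connexin 43), the connexin of the lens epithelium, fell. It measured 267, 296 and 303 FPKM at E10.5 and 205, 89.3 and 89.2 FPKM at E12.5, a log2 fold change of -1.28 ± 0.24 (limma adjusted p = 0.000334), and E12.5 library 1 stood well above the other 2 libraries of its stage. The adhesion protein gene Cadm1 measured 91.9, 96.3 and 98.9 FPKM at E10.5 and 363, 342 and 473 FPKM at E12.5, and the transporter gene Slc16a12, which is linked to juvenile cataract, measured 3.43, 2.89 and 2.69 FPKM at E10.5 and 48.3, 52.9 and 74.4 FPKM at E12.5. Both rose, with log2 fold changes of 2.01 ± 0.11 and 3.87 ± 0.15.

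The beaded filament is an intermediate filament found only in the lens, and with the spectrin skeleton it lines the fibre membrane. Of 20 tested genes of this list, 13 rose, 12 of them at least 2-fold, 3 fell, and the median log2 fold change was 1.55. Bfsp1 (filensin) measured 3.16, 3.79 and 3.68 FPKM at E10.5 and 85.8, 133 and 178 FPKM at E12.5, a log2 fold change of 4.82 ± 0.20 (limma adjusted p = 8.95e-11). Bfsp2 (phakinin) measured 2.24, 3.84 and 3.59 FPKM at E10.5 and 144, 221 and 276 FPKM at E12.5, a log2 fold change of 5.64 ± 0.20 (limma adjusted p = 2.07e-11). Vim (vimentin) was abundant at both stages and measured 411, 461 and 415 FPKM at E10.5 and 1369, 1795 and 1880 FPKM at E12.5, a log2 fold change of 1.96 ± 0.13 (limma adjusted p = 2.09e-08).

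Genes of the membrane skeleton rose alongside. Tmod1, which caps the pointed ends of actin filaments, measured 1.98, 0.34 and 0.62 FPKM at E10.5 and 38.0, 50.0 and 70.2 FPKM at E12.5, a log2 fold change of 4.81 ± 0.25 (limma adjusted p = 8.94e-10). The spectrin gene Sptb measured 41.6, 21.9 and 23.9 FPKM at E10.5 and 401, 451 and 681 FPKM at E12.5, a log2 fold change of 4.10 ± 0.21 (limma adjusted p = 9.27e-10), and E10.5 library 1 was the highest of its stage. Ank2, an adaptor between spectrin and membrane proteins, measured 42.2, 45.2 and 46.7 FPKM at E10.5 and 532, 626 and 954 FPKM at E12.5, a log2 fold change of 3.90 ± 0.15 (limma adjusted p = 5.86e-11). Prx (periaxin) measured 8.93, 9.99 and 9.04 FPKM at E10.5 and 96.6, 128 and 156 FPKM at E12.5, a log2 fold change of 3.61 ± 0.13 (limma adjusted p = 2.52e-11). The related capping protein gene Tmod3 moved the other way and measured 61.7, 70.1 and 65.5 FPKM at E10.5 and 46.8, 33.9 and 35.2 FPKM at E12.5, a log2 fold change of -0.77 ± 0.12 (limma adjusted p = 0.000102). In all 5 genes the 3 libraries of one stage lay wholly above those of the other, as in 58.3% of all genes tested.

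**Figure D1:**
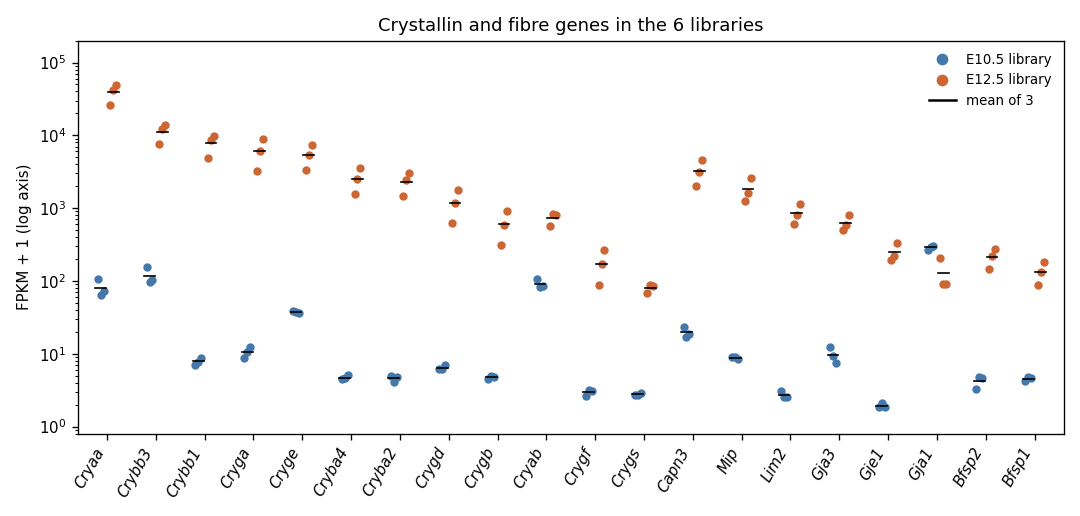
FPKM + 1 on a log axis for 20 crystallin and fibre genes in each of the 3 E10.5 and 3 E12.5 libraries (points), with bars at stage means. Most genes sit near or below 100 at E10.5 and 1 or more decades higher at E12.5, while Gja1 is lower at E12.5.

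Capn3 and Chrng were also among the 15 largest rises. Capn3, which encodes a calcium-dependent protease with a lens isoform, lies at chr2:120456019-120504913, plus strand and measured 22.4, 16.1 and 17.4 FPKM at E10.5 and 2039, 3181 and 4627 FPKM at E12.5, a log2 fold change of 7.32 ± 0.22 (limma adjusted p = 3.22e-12). Chrng, a subunit of the fetal acetylcholine receptor of muscle, lies at chr1:87204657-87212694, plus strand and measured 0.46, 0.42 and 0.50 FPKM at E10.5 and 158, 233 and 282 FPKM at E12.5, a log2 fold change of 7.23 ± 0.16 (limma adjusted p = 1.41e-13). Of 11 tested muscle markers, 2 rose and 3 fell, 1 rose when library 1 or 2 of either stage was left out, and the list summed to at most 15.3 FPKM in any E10.5 library and 15.4 FPKM in any E12.5 library. Myog, the muscle-defining factor, was at 0, 0 and 0 FPKM at E10.5 and 0, 0.29 and 0.07 FPKM at E12.5. Their part in the rise of Chrng was not tested.

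The transcription factors of the lens split in both directions. Of 35 tested, 13 rose (37.1%) and 16 fell (45.7%), against 29.5% and 26.0% of all genes tested. At least 2-fold changes were seen for 8 and 11 of them, and the median was -0.28. Hsf4, a heat shock factor of the lens, was nearly undetected at E10.5. It measured 0.18, 0.12 and 0.22 FPKM at E10.5 and 43.3, 83.1 and 86.5 FPKM at E12.5, a log2 fold change of 5.88 ± 0.19 (limma adjusted p = 9.72e-12). Sox1, which acts on gamma-crystallin genes in fibre cells, measured 26.6, 19.5 and 24.6 FPKM at E10.5 and 181, 253 and 302 FPKM at E12.5, a log2 fold change of 3.31 ± 0.16 (limma adjusted p = 4.74e-10). Prox1, required for fibre elongation, measured 159, 125 and 121 FPKM at E10.5 and 553, 663 and 859 FPKM at E12.5, a log2 fold change of 2.34 ± 0.13 (limma adjusted p = 2.18e-09). Maf, the factor that binds Maf response elements in crystallin promoters, measured 218, 169.6 and 185 FPKM at E10.5 and 576, 749.8 and 906 FPKM at E12.5, a log2 fold change of 1.94 ± 0.14 (limma adjusted p = 4.29e-08). The 3 libraries at E12.5 exceeded every E10.5 library for each of these 4 genes, against 58.3% of all genes tested that did not overlap in one direction or the other.

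Several factors of the early vesicle changed little. Pax6, needed for the lens from its first formation, measured 455, 450.2 and 444 FPKM at E10.5 and 378, 383 and 352 FPKM at E12.5, a log2 fold change of -0.28 ± 0.058 (limma adjusted p = 0.000915). The stages did not overlap, as in 58.3% of all genes tested, but the call was lost when the most abundant transcript stood for the gene. Foxe3, a factor of the lens epithelium, measured 321, 315 and 269 FPKM at E10.5 and 345, 451 and 393 FPKM at E12.5, a log2 fold change of 0.39 ± 0.13 (limma adjusted p = 0.0215), and 7 alternative settings lost this call. Six3 measured 125, 129.95 and 139 FPKM at E10.5 and 85.8, 109 and 106 FPKM at E12.5, a log2 fold change of -0.40 ± 0.092 (limma adjusted p = 0.00206). Pitx3, also a cataract gene, rose more clearly and measured 76.3, 61.5 and 66.1 FPKM at E10.5 and 128, 175 and 164 FPKM at E12.5, a log2 fold change of 1.18 ± 0.14 (limma adjusted p = 5.3e-06).

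Others fell by more. Sox2, which acts with Pax6 in lens induction, measured 85.7, 90.4 and 97.8 FPKM at E10.5 and 19.2, 18.0 and 11 FPKM at E12.5, a log2 fold change of -2.47 ± 0.16 (limma adjusted p = 1.3e-08). Otx2 measured 29.1, 56.4 and 44.9 FPKM at E10.5 and 11.1, 4.10 and 3.59 FPKM at E12.5, a log2 fold change of -2.71 ± 0.30 (limma adjusted p = 3.22e-06), Lhx2 37.4, 64.0 and 73.1 FPKM at E10.5 and 29.2, 13.0 and 11.2 FPKM at E12.5, a log2 fold change of -1.72 ± 0.45 (limma adjusted p = 0.00475), and both are also expressed in the optic cup. Sox11 measured 151, 151 and 163 FPKM at E10.5 and 69.0, 44.8 and 32.3 FPKM at E12.5, a log2 fold change of -1.72 ± 0.19 (limma adjusted p = 3.72e-06). Tfap2a, a factor of ectoderm and lens epithelium, measured 84.3, 70.2 and 74.9 FPKM at E10.5 and 21.6, 28.1 and 26.0 FPKM at E12.5, a log2 fold change of -1.57 ± 0.14 (limma adjusted p = 2.38e-07). Each of these 5 genes was lower in all 3 E12.5 libraries than in any E10.5 library, while 58.3% of all genes tested did not overlap in one direction or the other. For Sox2, Otx2, Lhx2 and Sox11, the highest E12.5 value was in library 1. Sox2 and Lhx2 are also members of the list of neural retina and optic cup markers. Tfap2a differed from the others at the next interval, where it rose by 0.54 on the log2 scale to a mean of 37.1 FPKM at E14.5.

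RNA-binding proteins with known roles in the lens included some of the strongest rises. Of 16 tested, 8 rose and 5 fell, with a median of 0.18. Caprin2 measured 27.1, 22.1 and 21.1 FPKM at E10.5 and 276, 411 and 560.1 FPKM at E12.5, a log2 fold change of 4.04 ± 0.18 (limma adjusted p = 2.53e-10). Tdrd7, a component of RNA granules whose loss causes cataract, measured 28.6, 29.3 and 32.0 FPKM at E10.5 and 323, 454 and 639.9 FPKM at E12.5, a log2 fold change of 3.88 ± 0.18 (limma adjusted p = 2.89e-10). Rbm24 measured 34.8, 24.4 and 22.3 FPKM at E10.5 and 308, 390.1 and 465 FPKM at E12.5, a log2 fold change of 3.79 ± 0.15 (limma adjusted p = 6.57e-11). Carhsp1 was more abundant at the start and measured 84.4, 95.7 and 96.4 FPKM at E10.5 and 373, 505 and 616 FPKM at E12.5, a log2 fold change of 2.40 ± 0.14 (limma adjusted p = 4.78e-09). The falling members were Rbpms, Rbpms2, Rbm20, Celf2 and Rbfox2, and Rbpms2 lost its call with a pseudocount of 0.1. Rbpms measured 40.4, 52.3 and 46.2 FPKM at E10.5 and 19.3, 12.3 and 7.48 FPKM at E12.5, a log2 fold change of -1.84 ± 0.26 (limma adjusted p = 3.57e-05).

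Genes typical of early embryonic growth mostly fell. Of 22 tested oncofetal and imprinted genes, 13 fell and 4 rose, with a median of -0.41. Lin28a, a regulator that blocks maturation of let-7 microRNAs, measured 125, 129.9 and 146 FPKM at E10.5 and 16.1, 14.4 and 10.3 FPKM at E12.5, a log2 fold change of -3.22 ± 0.17 (limma adjusted p = 1.27e-09). Mest measured 1071, 1186 and 1107 FPKM at E10.5 and 512, 363 and 379 FPKM at E12.5, a log2 fold change of -1.44 ± 0.13 (limma adjusted p = 5.32e-07). The 4 that rose were Meg3, Igf2, H19 and Arid3b. Meg3 measured 99.2, 71.5 and 125 FPKM at E10.5 and 326, 475 and 423 FPKM at E12.5, a log2 fold change of 2.06 ± 0.19 (limma adjusted p = 5.79e-07). Igf2, a fetal growth factor, measured 1139, 1198 and 1458 FPKM at E10.5 and 2786, 3050 and 3906 FPKM at E12.5, a log2 fold change of 1.35 ± 0.17 (limma adjusted p = 8.18e-06). H19, the non-coding neighbour of Igf2, rose by 1.09 ± 0.18 on the log2 scale, but its sign reversed to -0.12 under quantile normalization.

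**Figure D2:**
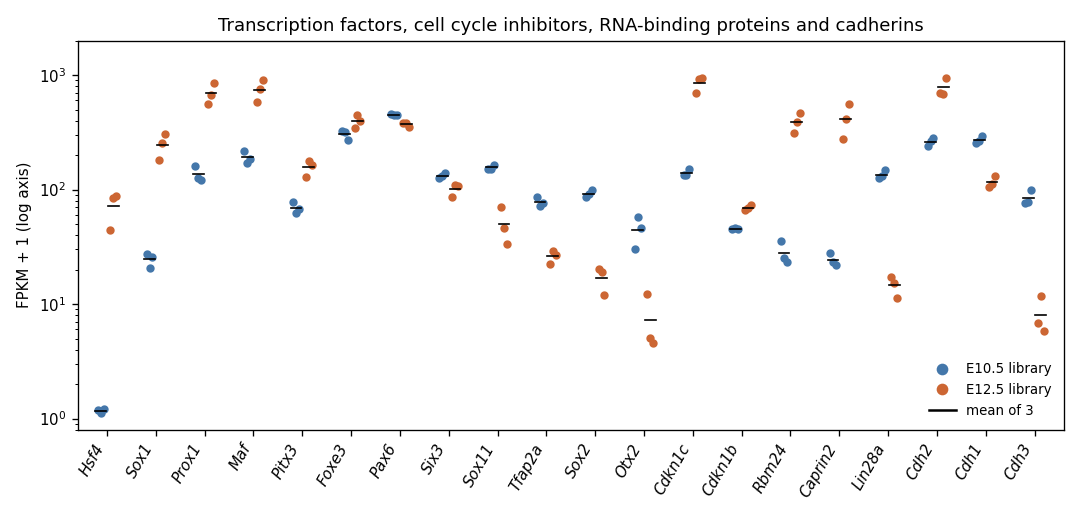
FPKM + 1 on a log axis for 20 regulators and adhesion genes in each of the 3 E10.5 and 3 E12.5 libraries (points), with bars at stage means. Hsf4 moves from near 0 to between 43.3 and 86.5 FPKM, Pax6 and Foxe3 stay within a narrow range, and Sox2, Otx2 and Lin28a are lower at E12.5.

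The cell division programme fell as a block. All 38 tested mitosis genes fell, 34 of them at least 2-fold, with a median log2 fold change of -1.14. Of 40 tested DNA replication genes, 39 fell, 15 of them at least 2-fold, with a median of -0.91. No member of either list rose by limma, at an adjusted or an unadjusted p under 0.05. Over the 19 alternatives, 37 or 38 mitosis genes and 36 to 40 replication genes fell. Mki67, the proliferation marker, measured 446, 476 and 553 FPKM at E10.5 and 304, 200.02 and 226 FPKM at E12.5, a log2 fold change of -1.03 ± 0.16 (limma adjusted p = 6.5e-05). Kif4, a kinesin of the chromosome arms, measured 116, 124 and 117 FPKM at E10.5 and 50.5, 41.8 and 35 FPKM at E12.5, a log2 fold change of -1.48 ± 0.14 (limma adjusted p = 5.67e-07). Cenpa, the histone of the centromere, measured 177, 164 and 133 FPKM at E10.5 and 71.1, 56.8 and 48.4 FPKM at E12.5, a log2 fold change of -1.42 ± 0.19 (limma adjusted p = 1.56e-05). Rrm2, which supplies deoxynucleotides, measured 217, 237 and 231 FPKM at E10.5 and 109, 87.3 and 82.4 FPKM at E12.5, a log2 fold change of -1.30 ± 0.13 (limma adjusted p = 9.2e-07). Orc1, of the origin recognition complex, measured 16.1, 18.8 and 16.9 FPKM at E10.5 and 6.24, 5.02 and 3.31 FPKM at E12.5, a log2 fold change of -1.67 ± 0.21 (limma adjusted p = 9.02e-06). The highest E12.5 library was number 1 for each of these 5 genes, and it still lay below every E10.5 library. Such a lack of overlap held for 58.3% of all genes tested. Mcm2 was the replication gene that did not pass the test, with values of 243, 259.9 and 264 FPKM at E10.5 and 226, 221 and 221 FPKM at E12.5.

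The promoters of the mitosis genes were searched in the same way. Genes that peak at the G2 and M phases often carry a cell cycle homology region, TTTGAA in its commonest form, near CCAAT boxes. Cdk1, the kinase that starts mitosis, and Cdc20, an activator of the anaphase-promoting complex, are shown as examples, chosen after their windows were seen. Capitals mark TTTGAA and CCAAT, or ATTGG where CCAAT lies on the other strand. Cdk1 measured 179, 209.8 and 185 FPKM at E10.5 and 98.3, 86.7 and 74.8 FPKM at E12.5, and Cdc20 125, 129 and 132 FPKM at E10.5 and 65.8, 57.3 and 53.2 FPKM at E12.5.
Cdk1, chr10:69352913-69353112, minus strand: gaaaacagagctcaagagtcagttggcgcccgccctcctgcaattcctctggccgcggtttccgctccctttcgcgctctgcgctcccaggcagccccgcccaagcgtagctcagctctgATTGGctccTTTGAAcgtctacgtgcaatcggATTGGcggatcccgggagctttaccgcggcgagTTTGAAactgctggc
Cdc20, chr4:118437344-118437543, minus strand: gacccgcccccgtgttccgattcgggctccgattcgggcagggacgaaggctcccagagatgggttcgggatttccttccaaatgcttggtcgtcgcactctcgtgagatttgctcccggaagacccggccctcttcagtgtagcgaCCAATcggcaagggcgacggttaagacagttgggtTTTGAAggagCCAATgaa
In Cdk1, TTTGAA begins at bases -71 and -15. In Cdc20 it begins at -18, between CCAAT matches at -53 and -8. TTTGAA was found in 25 of 34 windows of mitosis genes (73.5%), against 11.7% of all windows of tested genes. CCAAT was found in 24 of them (70.6%), against 37.7% of all windows, and it was also in 76.0% of windows of the cholesterol and fatty acid synthesis list. In the replication list, TTTGGCG, an E2F-type letter pattern, was in 9 of 40 windows (22.5%), against 2.38% of all. TTTCCCG, another such pattern, was in 17.5% against 5.45%. Some genes have more than 1 window, and windows of 1 gene overlap.

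Several inhibitors of the cell cycle rose. In the list of cell cycle exit genes and D cyclins, 15 of 24 rose and 6 fell, with a median of 0.72. Cdkn1c (p57) was the most abundant of the inhibitors at E12.5. It measured 134, 133 and 149 FPKM at E10.5 and 698, 919 and 935 FPKM at E12.5, a log2 fold change of 2.60 ± 0.12 (limma adjusted p = 3.27e-10). Cdkn1b (p27) measured 44.4, 45.4 and 44.1 FPKM at E10.5 and 65.3, 68.2 and 72.2 FPKM at E12.5, a log2 fold change of 0.61 ± 0.055 (limma adjusted p = 4.29e-07), a call that was lost when the most abundant transcript stood for the gene. Cdkn2a and Cdkn2b, adjacent genes of the INK4 type, appeared at low level. Cdkn2b measured 0.41, 0.14 and 0.39 FPKM at E10.5 and 16.4, 8.24 and 4.77 FPKM at E12.5, a log2 fold change of 2.90 ± 0.28 (limma adjusted p = 9.59e-07), and Cdkn2a 0.14, 0 and 0.39 FPKM at E10.5 and 6.66, 5.07 and 2.55 FPKM at E12.5. Both were highest in E12.5 library 1 and back at 0.65 and 0.09 FPKM on average at E14.5. Of the kinases that these proteins inhibit, Cdk4 measured 598, 697 and 651 FPKM at E10.5 and 486, 469.6 and 399 FPKM at E12.5 and Cdk2 90.2, 86.5 and 74.6 FPKM at E10.5 and 46.7, 37.5 and 30.3 FPKM at E12.5. Both fell, by log2 fold changes of -0.52 ± 0.092 and -1.13 ± 0.15.

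FGF signalling drives fibre differentiation. Of 25 tested genes of the pathway, 6 rose (24.0%) and 5 fell (20.0%), against 29.5% and 26.0% of all genes tested, with a median of 0.01. The rising count was 3 under quantile normalization, with crystallin-free totals, or without E10.5 library 1, and the falling count was 8 with crystallin-free totals and 2 with the most abundant transcript. Fgfr3, a receptor, measured 3.11, 6.12 and 6.93 FPKM at E10.5 and 90.1, 115 and 156 FPKM at E12.5, a log2 fold change of 4.27 ± 0.21 (limma adjusted p = 5.9e-10). The decoy-like receptor Fgfrl1 measured 19.2, 21.5 and 20.8 FPKM at E10.5 and 82.1, 101 and 116 FPKM at E12.5, a log2 fold change of 2.22 ± 0.12 (limma adjusted p = 1.19e-09). Spry1, a feedback inhibitor, measured 19.4, 18.3 and 15.8 FPKM at E10.5 and 56.9, 70.1 and 73.4 FPKM at E12.5, a log2 fold change of 1.85 ± 0.11 (limma adjusted p = 3.7e-09). Dusp6, a phosphatase induced by ERK signalling, moved the other way and measured 130.2, 117 and 107 FPKM at E10.5 and 47.0, 48.1 and 31.4 FPKM at E12.5, a log2 fold change of -1.48 ± 0.15 (limma adjusted p = 9.66e-07). Etv4, an ERK-responsive factor, fell as well, from 20.4, 23.1 and 18.3 FPKM to 16.45, 13.5 and 8.36 FPKM. The call for Etv4 was lost in 3 alternative settings.

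In the BMP and TGF-beta list, 6 of 36 rose and 14 fell, with a median of -0.28. Tgfb2, a ligand, measured 22.5, 32.7 and 24.7 FPKM at E10.5 and 142, 131 and 153 FPKM at E12.5, a log2 fold change of 2.39 ± 0.12 (limma adjusted p = 5.25e-10). Bmp4, a ligand needed for lens induction, measured 12.3, 16.3 and 25.5 FPKM at E10.5 and 3.98, 3.82 and 1.30 FPKM at E12.5, a log2 fold change of -2.26 ± 0.37 (limma adjusted p = 0.000123). The receptor gene Tgfbr2 measured 31.0, 30.4 and 31.2 FPKM at E10.5 and 19.6, 11.7 and 10.9 FPKM at E12.5 and fell, with a log2 fold change of -1.13 ± 0.27, a call that was lost without E10.5 libraries 1 and 3 (-1.11). In the Notch list, 5 of 26 rose and 10 fell, with a median of -0.05, and 3 rose with crystallin-free totals or without E10.5 libraries 1 and 3. In the main fit 19.2% of the Notch list rose and 38.5% fell, against 29.5% and 26.0% of all genes tested. Jag1, a Notch ligand, measured 158, 141 and 142 FPKM at E10.5 and 314, 306 and 389 FPKM at E12.5, a log2 fold change of 1.18 ± 0.097 (limma adjusted p = 1.54e-07). Lfng, which modifies Notch receptors, measured 8.47, 7.05 and 7.92 FPKM at E10.5 and 51.2, 64.6 and 64.2 FPKM at E12.5, a log2 fold change of 2.79 ± 0.11 (limma adjusted p = 5.66e-11). Hes1, a Notch target, measured 50.5, 65.3 and 54.9 FPKM at E10.5 and 28.4, 26.9 and 20.8 FPKM at E12.5, a log2 fold change of -1.14 ± 0.15 (limma adjusted p = 1.57e-05). Heyl, another target, measured 1.74, 0.99 and 2.86 FPKM at E10.5 and 22.3, 17.1 and 12.4 FPKM at E12.5, a log2 fold change of 2.69 ± 0.25 (limma adjusted p = 6.53e-07), and unlike Lfng it was highest in E12.5 library 1.

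Wnt pathway genes fell more often than they rose, 17 against 8 of 40, with a median of -0.31. The rises were led by secreted proteins. Sfrp1, a Wnt antagonist, measured 130, 141 and 148 FPKM at E10.5 and 993, 1136 and 1613 FPKM at E12.5, a log2 fold change of 3.12 ± 0.15 (limma adjusted p = 3.5e-10). Wnt7b, a ligand, measured 9.39, 12.6 and 12.2 FPKM at E10.5 and 61.3, 91.3 and 107 FPKM at E12.5, a log2 fold change of 2.79 ± 0.16 (limma adjusted p = 4.06e-09). Dkk3 measured 152, 173 and 181 FPKM at E10.5 and 493, 529 and 767 FPKM at E12.5, and Wnt5b 28.7, 29.5 and 30.4 FPKM at E10.5 and 74.2, 80.1 and 105 FPKM at E12.5. The related antagonist Sfrp2 fell and measured 962, 1038 and 1057 FPKM at E10.5 and 367, 299 and 256 FPKM at E12.5, a log2 fold change of -1.74 ± 0.19 (limma adjusted p = 2.8e-06). Wnt6, a ligand of surface ectoderm, measured 5.92, 6.12 and 4.67 FPKM at E10.5 and 0.54, 0.30 and 0 FPKM at E12.5, a log2 fold change of -2.38 ± 0.16 (limma adjusted p = 2.38e-08). Sfrp1 and Sfrp2 thus changed order, with Sfrp2 the higher in every E10.5 library and Sfrp1 the higher in every E12.5 library.

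Among Eph receptors and ephrins, 12 of 19 fell and 2 rose, with a median of -0.52. Epha2, a receptor linked to cataract, rose and measured 43.2, 39.9 and 34.9 FPKM at E10.5 and 62.5, 63.8 and 64.1 FPKM at E12.5, a log2 fold change of 0.68 ± 0.095 (limma adjusted p = 3e-05). Epha1 measured 12.8, 9.75 and 12.2 FPKM at E10.5 and 1.46, 2.24 and 0.58 FPKM at E12.5, a log2 fold change of -2.43 ± 0.22 (limma adjusted p = 3.38e-07). The other rise, of Efnb1, did not hold in 9 alternative settings, and its stages overlapped. In the retinoic acid list, 11 of 20 fell and 4 rose, with a median of -0.72. Aldh1a3, a retinoic acid synthesising enzyme, measured 463, 527 and 618 FPKM at E10.5 and 99.7, 41.6 and 41.5 FPKM at E12.5, a log2 fold change of -3.23 ± 0.46 (limma adjusted p = 3.38e-05). Crabp1, a carrier of retinoic acid inside cells, measured 137, 136 and 133 FPKM at E10.5 and 9.41, 5.48 and 3.62 FPKM at E12.5, a log2 fold change of -4.33 ± 0.21 (limma adjusted p = 5.95e-10). The related enzyme gene Aldh1a1 was abundant at both stages, at 432, 806 and 740.4 FPKM at E10.5 and 1048, 845 and 978 FPKM at E12.5, and its call was lost in 3 alternatives.

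Genes of the lens capsule, the basement membrane around the lens, changed in both directions. Their shares were 40.0% rising and 28.0% falling, against 29.5% and 26.0% of all genes tested. Of 25 tested, 10 rose and 7 fell, with a median of 0.19, and the falling count was 4 without E10.5 libraries 1 and 3. The collagen IV chains rose. Col4a1 measured 392, 438 and 630.0 FPKM at E10.5 and 2077, 2055 and 2944 FPKM at E12.5, a log2 fold change of 2.29 ± 0.18 (limma adjusted p = 9.12e-08), Col4a5 74.0, 82.3 and 91.8 FPKM at E10.5 and 433, 463 and 677 FPKM at E12.5, and Col4a6 51.3, 48.0 and 56.2 FPKM at E10.5 and 247, 278 and 425 FPKM at E12.5. Nid1, which links collagen IV to laminin, measured 262, 239 and 268 FPKM at E10.5 and 1036, 923 and 1354 FPKM at E12.5, a log2 fold change of 2.09 ± 0.12 (limma adjusted p = 4.67e-09). Agrn, a heparan sulphate proteoglycan, fell and measured 265, 269 and 287 FPKM at E10.5 and 159, 110.1 and 71.9 FPKM at E12.5, a log2 fold change of -1.33 ± 0.19 (limma adjusted p = 3.72e-05). Frem2, of the ectodermal basement membrane, measured 118, 139.7 and 233 FPKM at E10.5 and 37.9, 28.3 and 39.4 FPKM at E12.5, a log2 fold change of -2.14 ± 0.20 (limma adjusted p = 4.41e-07).

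Receptors for the matrix changed with it. Of 21 tested integrin genes and partners, 9 rose and 4 fell, with a median of 0.28. Itga6, a laminin receptor chain, measured 70.5, 77.3 and 85.7 FPKM at E10.5 and 258, 246 and 359.7 FPKM at E12.5, a log2 fold change of 1.86 ± 0.15 (limma adjusted p = 8.93e-08). Itga2 measured 7.10, 6.65 and 7.24 FPKM at E10.5 and 35.8, 40.5 and 58.7 FPKM at E12.5, a log2 fold change of 2.49 ± 0.15 (limma adjusted p = 3.92e-09). Itga3, a second laminin receptor chain, moved the other way and measured 140.3, 142 and 174 FPKM at E10.5 and 37.9, 39.0 and 41.0 FPKM at E12.5, a log2 fold change of -1.92 ± 0.11 (limma adjusted p = 4.19e-09). Fermt1, the kindlin of epithelia, measured 14.1, 12.9 and 11.4 FPKM at E10.5 and 0.39, 0.24 and 0 FPKM at E12.5, a log2 fold change of -3.52 ± 0.16 (limma adjusted p = 1.94e-10). Itga3 exceeded Itga6 in every E10.5 library, and Itga6 exceeded Itga3 in every E12.5 library.

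The cadherins also changed in both directions. Cdh1 (E-cadherin) measured 255, 264 and 292 FPKM at E10.5 and 103, 111 and 129.7 FPKM at E12.5, a log2 fold change of -1.24 ± 0.10 (limma adjusted p = 1.33e-07). Cdh2 (N-cadherin) measured 237, 265 and 280.2 FPKM at E10.5 and 702, 687 and 945 FPKM at E12.5, a log2 fold change of 1.56 ± 0.11 (limma adjusted p = 4.3e-08). Cdh3 (P-cadherin) measured 75.1, 76.6 and 97.6 FPKM at E10.5 and 5.83, 10.7 and 4.77 FPKM at E12.5, a log2 fold change of -3.44 ± 0.24 (limma adjusted p = 2.67e-08), and Cdh4 (R-cadherin) 28.0, 31.9 and 35.3 FPKM at E10.5 and 113, 129.9 and 187 FPKM at E12.5, a log2 fold change of 2.12 ± 0.14 (limma adjusted p = 2.15e-08). At E10.5 the values of Cdh1 and Cdh2 lay close together, while at E12.5 Cdh2 stood above Cdh1 in every library. Of the 18 tested cadherins, catenins and nectins, 7 rose (38.9%) and 8 fell (44.4%), against 29.5% and 26.0% of all genes tested, with a median of 0.02. The falling count was 5 without E10.5 libraries 1 and 3.

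In the actomyosin list, 15 of 34 fell and 8 rose, with a median of -0.15. Tpm2, a tropomyosin, rose and measured 28.4, 30.2 and 23.3 FPKM at E10.5 and 85.2, 113 and 112 FPKM at E12.5, a log2 fold change of 1.88 ± 0.12 (limma adjusted p = 7.38e-09). Tpm1 and Tpm4 fell. Tpm4 measured 443, 476 and 433 FPKM at E10.5 and 278, 187 and 153 FPKM at E12.5, a log2 fold change of -1.17 ± 0.18 (limma adjusted p = 5.58e-05). Tmsb10, an actin-sequestering thymosin, measured 740.4, 973 and 882 FPKM at E10.5 and 394, 342 and 245 FPKM at E12.5, a log2 fold change of -1.42 ± 0.15 (limma adjusted p = 1.96e-06). Among tubulins and microtubule proteins, 13 of 28 rose and 6 fell, with a median of 0.28. Map6, which stabilises microtubules, measured 3.94, 6.24 and 6.72 FPKM at E10.5 and 64.7, 83.6 and 114 FPKM at E12.5, a log2 fold change of 3.72 ± 0.18 (limma adjusted p = 5.96e-10). Kif1a, a vesicle motor best known from neurons, measured 28.6, 56.5 and 48.8 FPKM at E10.5 and 148, 176 and 276 FPKM at E12.5, a log2 fold change of 2.14 ± 0.24 (limma adjusted p = 3.98e-06). Stmn1, which destabilises microtubules, fell and measured 499.6, 663 and 590.1 FPKM at E10.5 and 351, 292 and 240.2 FPKM at E12.5, a log2 fold change of -0.99 ± 0.15 (limma adjusted p = 4.34e-05).

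Glycolysis genes fell together. Of 25 tested, 19 fell and 3 rose, with a median of -0.70, and 17 to 20 fell over the 19 alternatives. Ldha, the lactate dehydrogenase subunit induced by low oxygen, measured 849, 1068 and 997 FPKM at E10.5 and 334, 318 and 294 FPKM at E12.5, a log2 fold change of -1.62 ± 0.099 (limma adjusted p = 6.93e-09). Slc16a3, which exports lactate, measured 72.8, 82.2 and 91.8 FPKM at E10.5 and 20.2, 15.9 and 16.6 FPKM at E12.5, a log2 fold change of -2.17 ± 0.099 (limma adjusted p = 3.01e-10). Ldhb, the other lactate dehydrogenase subunit, measured 98.8, 136 and 137 FPKM at E10.5 and 40.2, 30.2 and 19.7 FPKM at E12.5, a log2 fold change of -2.05 ± 0.21 (limma adjusted p = 1.86e-06). Slc2a3, a glucose transporter, measured 55.4, 61.6 and 75.6 FPKM at E10.5 and 9.57, 6.00 and 4.62 FPKM at E12.5, a log2 fold change of -3.12 ± 0.21 (limma adjusted p = 2.4e-08). The main glucose transporter gene of the lens, Slc2a1, moved the other way and measured 369, 414 and 438 FPKM at E10.5 and 657, 682 and 787 FPKM at E12.5, a log2 fold change of 0.80 ± 0.089 (limma adjusted p = 3.69e-06). Aldoc and Vegfa were the other members that rose. For Ldha, Slc16a3 and Slc2a3, the 3 libraries of each stage lay apart from those of the other, as in 58.3% of all genes tested.

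Mitochondrial genes moved up by small amounts. Of 76 tested nuclear genes of oxidative phosphorylation, 50 rose and 4 fell, with a median of 0.31 and 1 rise of at least 2-fold. The rising count was 25 without E10.5 libraries 1 and 3, and 2 fell without E10.5 library 2 or without E10.5 library 3 and E12.5 library 1 together. Ndufa1, a subunit of complex I, measured 50.2, 68.4 and 66.2 FPKM at E10.5 and 167, 203 and 199 FPKM at E12.5, a log2 fold change of 1.62 ± 0.11 (limma adjusted p = 2.6e-08). Of 81 cytosolic ribosomal protein genes, 21 rose and none fell by limma at an adjusted or an unadjusted p under 0.05, with a median of 0.14. This direction depended on scaling, since 3 rose and 17 fell under quantile normalization, and 7 rose with crystallin-free totals. The rising count was 12 without E10.5 library 1 and 5 without E10.5 libraries 1 and 3. Rpsa, the gene with the largest rise among them, reversed from 0.52 ± 0.11 to -0.09 under quantile normalization.

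Lipid, redox and protein handling genes gave mixed pictures. In cholesterol and fatty acid synthesis, 13 of 28 rose and 3 fell, with a median of 0.23, and 7 rose without E10.5 libraries 1 and 3. The falling count was 5 under 3 rescalings, and 1 without E10.5 library 2, E10.5 library 3 or E12.5 library 2, or in a fit of the compared libraries alone. Scd2, a desaturase, measured 1064, 1156 and 1259 FPKM at E10.5 and 2384, 2352 and 3537 FPKM at E12.5, a log2 fold change of 1.23 ± 0.18 (limma adjusted p = 3.59e-05). Among glutathione and antioxidant genes, 13 of 34 rose (38.2%) and 8 fell (23.5%), against 29.5% and 26.0% of all genes tested. Their median was 0.003, and 13 fell under quantile normalization. Gss, glutathione synthetase, measured 21.2, 16.9 and 21.2 FPKM at E10.5 and 193, 282 and 344 FPKM at E12.5, a log2 fold change of 3.69 ± 0.16 (limma adjusted p = 1.3e-10). Slc7a11, the cystine transporter that feeds glutathione synthesis, measured 9.66, 10.6 and 8.46 FPKM at E10.5 and 49.9, 43.1 and 58.3 FPKM at E12.5, a log2 fold change of 2.28 ± 0.19 (limma adjusted p = 1.34e-07). Gstp1 measured 25.6, 28.9 and 27.5 FPKM at E10.5 and 80.6, 98.9 and 117 FPKM at E12.5, and Gpx1 147, 149 and 163 FPKM at E10.5 and 427, 436 and 449 FPKM at E12.5. Prdx6, a peroxiredoxin, fell and measured 205, 239.7 and 200.3 FPKM at E10.5 and 118, 101 and 92.0 FPKM at E12.5, a log2 fold change of -1.05 ± 0.091 (limma adjusted p = 2.61e-07).

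Of 30 chaperone genes, 6 rose (20.0%) and 5 fell (16.7%), both below the shares of all genes, with a median of 0.09. Under quantile normalization 11 fell, and 3 fell when E10.5 library 3, E12.5 library 2 or E12.5 library 3 was left out. Without E10.5 libraries 1 and 3, 3 rose and 2 fell. Pdia6, of the endoplasmic reticulum, measured 388, 439 and 479 FPKM at E10.5 and 1085, 1104 and 1411 FPKM at E12.5, a log2 fold change of 1.46 ± 0.11 (limma adjusted p = 8.1e-08). Of 16 sodium and calcium pump and exchanger genes, 4 rose (25.0%) and 5 fell (31.2%), near the shares of all genes, with a median of -0.16, and 3 fell without E10.5 libraries 1 and 3. In the list of autophagy, lysosome and nuclear breakdown genes, 20 of 31 rose and 5 fell, with a median of 0.50. Ctsd, a lysosomal protease, measured 123, 172 and 183 FPKM at E10.5 and 354, 348 and 426 FPKM at E12.5, a log2 fold change of 1.25 ± 0.13 (limma adjusted p = 2.1e-06). Bnip3l, which marks mitochondria for autophagy and acts in clearing fibre organelles, measured 102, 134 and 118 FPKM at E10.5 and 220.1, 238 and 277 FPKM at E12.5, a log2 fold change of 1.05 ± 0.12 (limma adjusted p = 3.59e-06). Lmnb1, a nuclear lamin, fell and measured 318, 391 and 368 FPKM at E10.5 and 186, 161 and 140.2 FPKM at E12.5, a log2 fold change of -1.14 ± 0.13 (limma adjusted p = 2.81e-06). Of 24 apoptosis genes, 9 rose (37.5%) and 8 fell (33.3%), against 29.5% and 26.0% of all genes tested, with a median of 0.01.

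**Figure D3:**
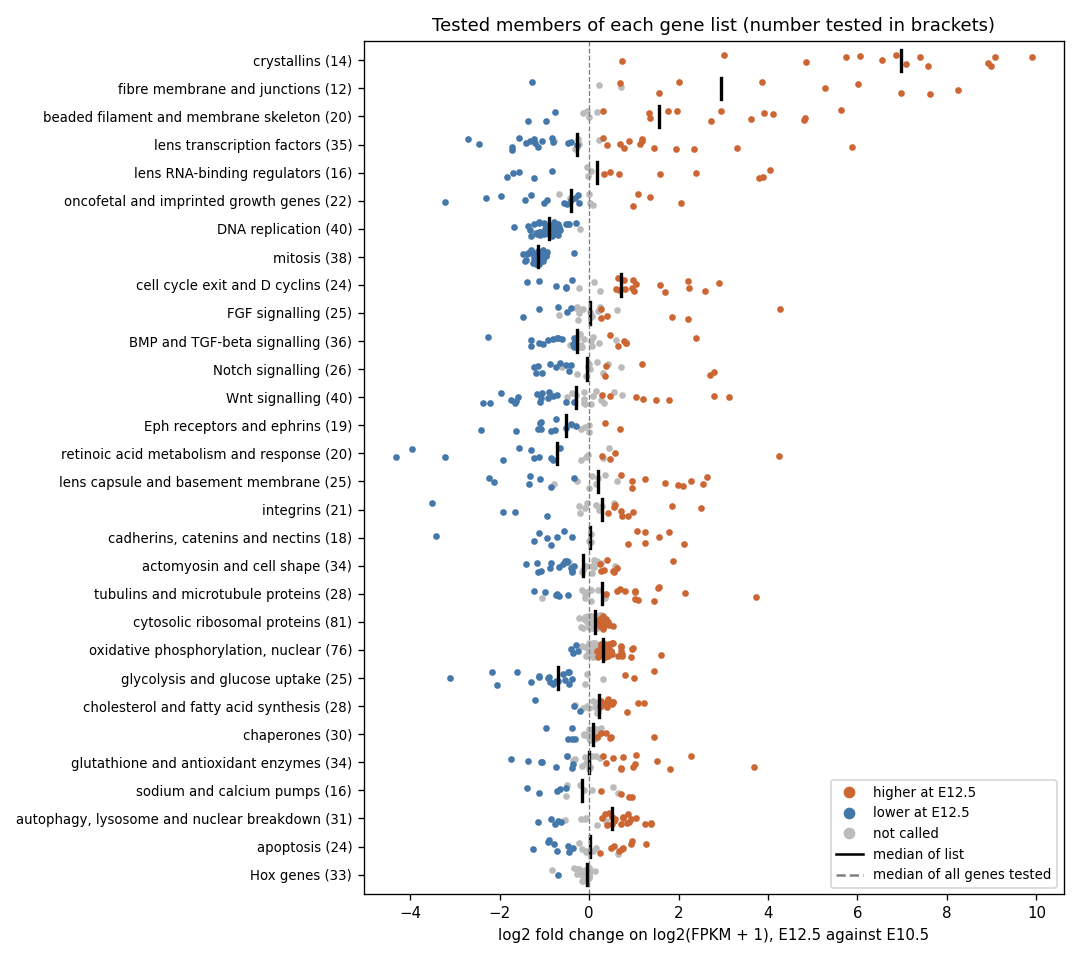
Log2 fold changes (E12.5 minus E10.5) of the tested members of 30 gene lists, 1 point per gene, with each list's median and a line at the median of all genes tested (0.006). Crystallins lie at the top with a median of 6.97, and the mitosis and DNA replication lists have all or nearly all members below 0.

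Most surface ectoderm markers fell. Of 18 tested, 15 fell, 14 of them at least 2-fold, none rose by limma at an adjusted or an unadjusted p under 0.05, and the median was -2.65. Without E12.5 library 1, 1 rose. The summed level of the list was 483.5 to 587.8 FPKM at E10.5 and 27.0, 83.6 and 29.1 FPKM in libraries 1, 2 and 3 at E12.5. Krt8, a keratin of simple epithelia, measured 94.8, 98.3 and 134 FPKM at E10.5 and 2.41, 11.7 and 3.33 FPKM at E12.5, a log2 fold change of -4.25 ± 0.34 (limma adjusted p = 1.17e-07). Epcam, an epithelial adhesion molecule, measured 85.0, 84.2 and 98.0 FPKM at E10.5 and 2.87, 14.1 and 3.76 FPKM at E12.5, a log2 fold change of -3.78 ± 0.38 (limma adjusted p = 1.18e-06). Cldn6, a claudin, measured 58.8, 54.0 and 70.3 FPKM at E10.5 and 0.31, 16.4 and 2.38 FPKM at E12.5, a log2 fold change of -3.86 ± 0.59 (limma adjusted p = 6.66e-05), with E12.5 library 2 the highest of its stage. Trp63, the factor of stratified epithelia, measured 16.6, 14.7 and 18.97 FPKM at E10.5 and 0.55, 0.06 and 0.22 FPKM at E12.5, a log2 fold change of -3.81 ± 0.15 (limma adjusted p = 7.19e-11). Krt5, a keratin of basal skin cells, was low in every library, at 0.87, 0.24 and 0.22 FPKM at E10.5 and 0.16, 2.00 and 0.80 FPKM at E12.5, and did not pass the test.

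Dsp, Has2, Cbln2, Cxcl14 and Esrp1 were among the 15 largest falls, and Esrp1 is also a member of the surface ectoderm list. Dsp (desmoplakin), a desmosome protein, measured 112, 133 and 176 FPKM at E10.5 and 3.65, 2.65 and 1.60 FPKM at E12.5, a log2 fold change of -5.29 ± 0.19 (limma adjusted p = 2.52e-11). Has2, which makes hyaluronan, measured 78.9, 79.0 and 79.4 FPKM at E10.5 and 3.42, 1.12 and 1.30 FPKM at E12.5, a log2 fold change of -4.85 ± 0.22 (limma adjusted p = 2.17e-10). Cbln2 measured 41.3, 37.5 and 37.6 FPKM at E10.5 and 0.39, 0.41 and 0.14 FPKM at E12.5, a log2 fold change of -4.93 ± 0.17 (limma adjusted p = 1.5e-11), and the chemokine gene Cxcl14 39.0, 41.7 and 38.5 FPKM at E10.5 and 1.17, 1.53 and 0.80 FPKM at E12.5, a log2 fold change of -4.24 ± 0.16 (limma adjusted p = 5.23e-11). Esrp1, a splicing regulator of epithelia, measured 54.9, 53.8 and 51.0 FPKM at E10.5 and 0.02, 5.77 and 1.01 FPKM at E12.5, a log2 fold change of -4.50 ± 0.44 (limma adjusted p = 1.05e-06). For Has2, Cbln2, Cxcl14 and Esrp1 the E10.5 values lay within a narrow range. For all 5 genes every E12.5 library lay below every E10.5 library, which the rule that chose the largest falls required. How much ectoderm each dissection held is not stated in the labels, and the part of surface ectoderm in these falls was not tested.

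The falls with the least even replicates were those of liver-type transcripts. Afp measured 339.6, 6.91 and 625 FPKM at E10.5 and 0.06, 0.34 and 0.35 FPKM at E12.5, a log2 fold change of -6.58 ± 1.05 (limma adjusted p = 0.0001). Apoa1 measured 71.6, 2.84 and 128 FPKM at E10.5 and 0.08, 0.06 and 0.07 FPKM at E12.5, Ttr 47.7, 2.41 and 83.0 FPKM at E10.5 and 0.39, 0.18 and 0.22 FPKM at E12.5, and Rbp4 34.4, 2.55 and 53.2 FPKM at E10.5 and 0.54, 0.18 and 0 FPKM at E12.5. In all 4 genes E10.5 libraries 1 and 3 were high and library 2 was low. Alb, the defining liver gene, was near 0 in all 6 libraries, at 0.35, 0 and 0.12 FPKM at E10.5 and 0.16, 0.18 and 0 FPKM at E12.5. Of 12 tested markers of liver and yolk sac, 10 fell and none rose by limma at an adjusted or an unadjusted p under 0.05. There were 6 falls and 1 rise without E10.5 libraries 1 and 3, and 5 falls in a fit of the compared libraries alone. The list summed to 620.2, 26.9 and 1164 FPKM at E10.5 and 20.5 to 26.3 FPKM at E12.5. Their part in other results was not tested beyond leaving those libraries out.

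Markers of blood and vessels also moved. Hbb-bs, an adult beta-globin, measured 9.98, 4.31 and 2.87 FPKM at E10.5 and 215, 149 and 147 FPKM at E12.5, a log2 fold change of 4.79 ± 0.33 (limma adjusted p = 2.57e-08). The embryonic globins differed in direction. Hbb-bh1 measured 1229, 611 and 591 FPKM at E10.5 and 518, 215 and 134 FPKM at E12.5, a log2 fold change of -1.63 ± 0.39 (limma adjusted p = 0.00266), a call that was lost without E10.5 libraries 1 and 3 (-1.31, limma adjusted p = 0.0677). Hbb-y measured 1884, 875 and 811 FPKM at E10.5 and 4453, 2691 and 2174 FPKM at E12.5, a log2 fold change of 1.43 ± 0.38 (limma adjusted p = 0.00492), a call that was lost under quantile normalization (1.16, limma adjusted p = 0.0738) and without E10.5 library 3 and E12.5 library 1 (0.91, limma adjusted p = 0.0829). Of 13 erythroid markers, 5 rose and 2 fell. The falling count was 1 without E10.5 library 1, E12.5 library 2 or E12.5 library 3, 0 without E10.5 libraries 1 and 3, and 4 without E10.5 library 3 and E12.5 library 1. The summed level was 5118, 2327 and 2233 FPKM at E10.5 and 8227, 4865 and 3734 FPKM at E12.5. Endothelial markers fell in 7 of 12, against 3 without E12.5 library 3 and 2 without E10.5 libraries 1 and 3, and their sum went from 668.8 to 724.1 FPKM to 618.3, 357.5 and 316.0 FPKM. Macrophage markers summed to 144.8 to 171.3 FPKM and then to 113.2 to 219.4 FPKM, so the stages overlapped.

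Optic cup and mesenchyme markers were uneven among libraries. Of 14 neural retina and optic cup markers, 7 fell and 2 rose, with a median of -0.88. Without E12.5 library 1, 11 fell, and in a fit of the compared libraries alone 4 fell. Their sum was 406.4 to 566.1 FPKM at E10.5 and 372.7, 300.1 and 232.3 FPKM in E12.5 libraries 1, 2 and 3. Rax, an optic cup factor, measured 13.5, 24.5 and 24.6 FPKM at E10.5 and 11.3, 5.53 and 4.27 FPKM at E12.5, a log2 fold change of -1.50 ± 0.33 (limma adjusted p = 0.00136). Periocular mesenchyme markers summed to 432.7, 434.9 and 2890 FPKM at E10.5 and 1272, 570.1 and 462.2 FPKM at E12.5. Of 14 such markers, 1 rose and 5 fell, 6 rose without E10.5 library 3, 2 rose without E12.5 library 3, and 4 rose without E10.5 library 3 and E12.5 library 1. Without E10.5 libraries 1 and 3, 3 rose and 3 fell. Of 5 pigment cell markers, none passed limma's test at an adjusted or an unadjusted p under 0.05, although 2 fell without E12.5 library 1 and 1 without E10.5 library 1. Of 33 Hox genes tested, Hoxb2 alone passed, at 0.55, 0.52 and 0.95 FPKM at E10.5 and 0.08, 0 and 0 FPKM at E12.5, and 5 fell with a pseudocount of 0.1, 3 without E10.5 library 2, and 2 without library 1 of either stage.

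**Figure D4:**
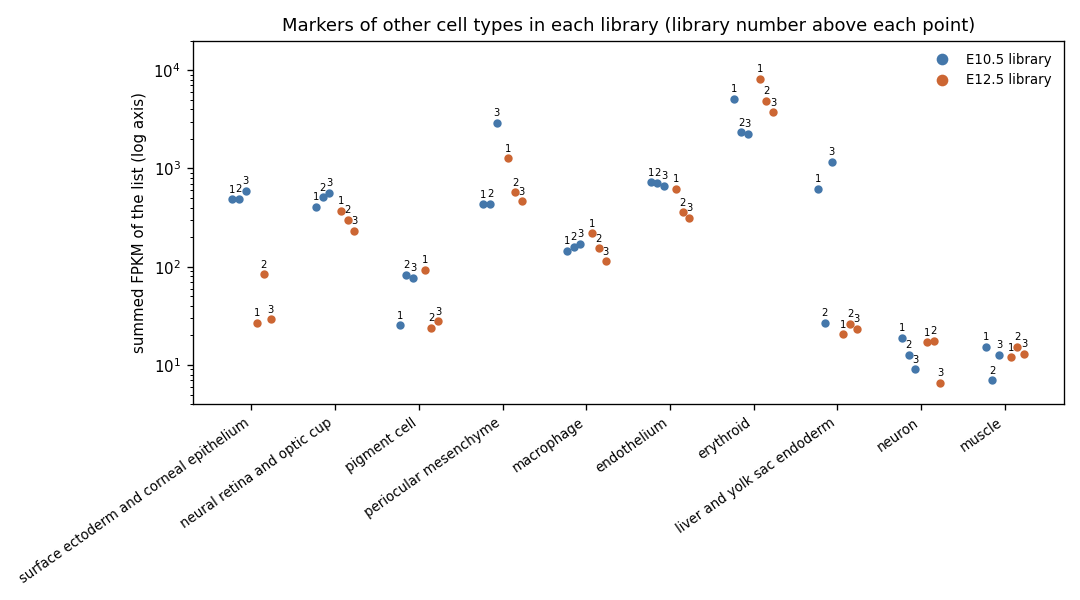
Summed FPKM (log axis) of 10 marker lists of other cell types in each of the 3 E10.5 and 3 E12.5 libraries, with the library number above each point. Surface ectoderm markers fall below 100 FPKM in every E12.5 library, the liver-type sum is high only in E10.5 libraries 1 and 3, and the mesenchyme sum is highest in E10.5 library 3.

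Among the largest falls, a pair rests on table entries that need care. The mitochondrial ribosomal RNA gene mt-Rnr2 was listed at 217, 190.1 and 149 FPKM at E10.5 and at 0 in all 3 E12.5 libraries, so no fold is given. Gcom1, a read-through of neighbouring genes, measured 38.2, 102 and 66.3 FPKM at E10.5 and 2.30, 0 and 3.01 FPKM at E12.5. Its values varied widely among the E10.5 libraries, with library 2 the highest.

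The change from E10.5 to E12.5 was then set against that from E12.5 to E14.5 in the same fit. The difference between the steps (first minus second) was positive for 1759 genes (12.1% of those tested) and negative for 1026 (7.06%). Of the 14532 genes tested, 3088 rose and 3258 fell at the second step, with a median log2 fold change of -0.014. Both steps use the E12.5 libraries, so their values are given side by side. For crystallins the median log2 fold change was 6.97 at the first step and 2.57 at the second, and the difference was positive for 12 of 14. Crybb1 rose by 9.90 and then by 2.02, a difference of 7.89 (limma adjusted p = 6.78e-09). Crygf, by contrast, rose by 5.75 and then by 5.92, and the difference did not pass the test (limma adjusted p = 0.85). Bfsp1 likewise rose by 4.82 and then by 4.57, to 3056 ± 395 FPKM at E14.5 (SD, n = 3; limma adjusted p of the difference = 0.677).

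Several lens genes made most of their change in the first step. Rbm24 rose by 3.79, against 0.28 at the second step, a difference of 3.51 (limma adjusted p = 3.81e-07). Cdh2 and Cdkn1c showed the same course. Cdh2 changed by 1.56 and then by -0.01, with a difference of 1.57 (limma adjusted p = 5.69e-05). Cdkn1c changed by 2.60 and then by 0.35, with a difference of 2.25 (limma adjusted p = 3.16e-06).

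The glycolysis list turned at E12.5. Its median was -0.70 at the first step, where 19 genes fell and 3 rose, and 0.56 at the second, where 18 rose and 4 fell. The second-step median of all genes tested was -0.014, with 3088 rising and 3258 falling of 14532. The difference between steps was negative for 17 of 25 genes and positive for 1. Ldha fell by 1.62 and then rose by 0.57 on the log2 scale, a difference of -2.18 (limma adjusted p = 6.45e-07). Slc16a3 fell by 2.17 and then rose by 1.17, a difference of -3.34 (limma adjusted p = 1.64e-08). Ldhb did not turn. It fell by 2.05 and then by 2.80, and its difference did not pass the test (limma adjusted p = 0.186). Cdh1 turned as Ldha did, with -1.24 and then 0.79, a difference of -2.03 (limma adjusted p = 1.49e-06). In the mitosis list the median was -1.14 and then -0.45, and the difference was negative for 16 of 38 genes.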

How the data were processed

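Expression was measured by RNA-seq of total RNA in 15 libraries, of which the comparison used 3 lens libraries at E10.5 and 3 at E12.5. The authors deposited 1 FPKM value for each transcript and library. The submitters' processing notes name Cuffnorm, Cufflinks, TopHat2 2.0.9, Trimmomatic and build mm10. The order of steps, the normalization setting, the read depth and the use of strand are not given in the sources used here, so no interval that needs depth is given.

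FPKM were summed over the transcripts of a symbol without the 172 of class x (antisense to an exon). A filter of 1 FPKM in 3 or more libraries removed 80 genes. A further 3 (Cryaa, Cryba1, Nufip2) are listed at 0 beside a replicate of at least 50 FPKM and were not tested, leaving 14532. Nufip2 had a log2 fold change of 0.22 ± 0.084 in a fit of the 6 compared libraries (limma adjusted p = 0.0704). Gene coordinates are from GENCODE vM21 (mm10).

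Log2(FPKM + 1) values of all 15 libraries were fitted in limma 3.58.1 (R 4.3.3) by group means (10 residual degrees of freedom), with a trended prior and Benjamini-Hochberg adjustment. The p-values measure the spread between pooled libraries. On simulated data with 14532 genes, the E12.5 against E10.5 test recovered 60% of 1.5-fold, 94% of 2-fold and 100% of 4-fold changes, with 11 false calls. In that simulation 50 genes changed at each fold size, none of them at low values, and noise was independent between libraries. In the data 8059 genes were called and RNA typical of other tissues was uneven, so these rates need not hold for the comparison. Deviations from the stage mean correlated at -0.09, -0.03 and 0.03 between same-numbered libraries of the 2 stages, and the labels give no pairing.

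Named genes were the 15 largest rises and 15 largest falls (at least 2-fold, at least 10 FPKM in the higher stage, no overlap), up to 4 called genes from each end of each list, a fixed set of lens genes, list members left out of the tests, and the genes with the largest differences between steps. Some of these are not reported here. Named outside this rule, after their values were seen, are Alb, Ank2, Cadm1, Cdc20, Cdk1, Col1a1, Crybb2, Crygc, Crygf, Epcam, Krt5, Mcm2, Myog, Prx, Slc16a12 and Vim. The lists, the comparison and the named genes were chosen with earlier results of these data known. Alternatives covered the pseudocount, the filter, 3 rescalings, the transcript used, the fit and each library left out, and 3 settings were added after seeing the data. Figures used matplotlib 3.10.9 and pandas 2.3.3 in Python 3.11.15.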

Additional observations from a re-analysis of the deposited data

Results flagged for a closer look

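For 10 genes the change from E10.5 to E12.5 differed, by limma's test of the difference, from the change from E12.5 to E14.5. They are the 5 largest differences in each direction among genes that changed one way and then the other, so they were chosen on this difference and it is given as a description. Both steps use the E12.5 libraries. Values are log2 fold changes of the first step, then the second, then their difference.

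Aldh1a2, a retinoic acid synthesising enzyme, changed by 4.25 and -3.36, a difference of 7.60. It stood at 1.14, 0.47 and 0.39 FPKM at E10.5 and 42.1, 28.4 and 22.6 FPKM at E12.5 and at 2.03 ± 0.11 FPKM at E14.5 (SD, n = 3). Hsd3b6, a steroid dehydrogenase, changed by 2.995 and -4.24, a difference of 7.24. Tfap2b changed by 1.51 and -4.56, a difference of 6.07, and stood at 19.5, 17.4 and 14.4 FPKM at E10.5 and 98.9, 40.9 and 31.1 FPKM at E12.5. Hbb-y, an embryonic globin, changed by 1.43 and -5.13, a difference of 6.55. Prnd changed by 1.89 and -3.90, a difference of 5.78. All 5 were highest at E12.5 among these 3 stages. E12.5 library 1, which held the most mesenchyme and red cell transcripts of its stage, was the highest E12.5 library for Aldh1a2, Hsd3b6, Tfap2b and Hbb-y, and its part in their course was not tested.

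Cdcp1, a membrane protein, changed by -3.74 and 1.90, a difference of -5.64. It stood at 18.8, 18.3 and 17.3 FPKM at E10.5 and 0.16, 1.32 and 0.09 FPKM at E12.5, and at 4.40 ± 0.81 FPKM at E14.5 (SD, n = 3). Pde2a, a cyclic nucleotide phosphodiesterase, changed by -0.97 and 2.88, a difference of -3.85, and stood at 35.1, 45.7 and 44.7 FPKM at E10.5 and 25.0, 17.4 and 20.2 FPKM at E12.5 before reaching 159 ± 14.4 FPKM at E14.5 (SD, n = 3). Fam46b changed by -0.64 and 3.27, a difference of -3.91. Rmst, a long non-coding RNA, changed by -0.80 and 2.90, a difference of -3.71. Slc16a3, the lactate exporter, changed by -2.17 and 1.17, a difference of -3.34. These 5 were lowest at E12.5.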

How the results depend on the processing

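Of 270 named genes tested, 52 lost their call under 1 or more of the alternative settings. Signs reversed for H19 (-0.124) and Rpsa (-0.094) under quantile normalization, for Acly (0.358) with the highest transcript per gene, and for Myl4 (0.037) without E10.5 libraries 1 and 3, a setting added after seeing the data. A 1.5-fold minimum gave 2435 higher and 2294 lower genes in place of 1240 and 1067 at 2-fold. The count of genes with a negative difference between steps was 1026, but 1721 under quantile normalization, 650 with the highest transcript per gene and 583 with only the compared groups. The positive count was 1759, but 1081 with only the compared groups. A replicate block gave 4283 higher and 3769 lower genes, 1242 and 1070 at 2-fold or more, and 1731 and 1005 for the differences between steps. Replicate numbers mark no stated shared litter or day.

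The read depth is unknown, so low values carry an unknown counting error. Calls at low FPKM also depend on the pseudocount. RNA typical of other tissues was uneven in E10.5 libraries 1 and 3 and in E12.5 library 1. Counts of marker lists and of other lists moved when these libraries were left out.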
